A study of Mus musculus with 36 samples.

Results

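Ion channel genes were examined in whole gut from mouse embryos at 3 stages named by embryonic day, E10.5, E12.5 and E14.5. The genes were taken by name: symbols that begin with Kcn, Cacn or Hcn, or that have the form of a sodium channel subunit (Scn, a number, then a or b). Such symbols numbered 138 among the 23847 gene entries. The 68 described here were chosen by their own level, 1 FPKM or more in at least 3 of the 36 libraries, with no regard to group. FPKM is a fragment count scaled by transcript length and by library size, so levels can be set side by side between genes on this per-length scale. The symbols cover more than voltage-gated channels. Inward rectifiers (Kcnj), 2-pore channels (Kcnk) and several calcium-activated channels (Kcnn) carry the same name stem without opening mainly by voltage, so the text calls the set ion channel genes.

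All embryos were of strain C57BL/6J. At each stage there were 4 groups of 3 libraries: wild type female, wild type male, Ret null female and Ret null male. The label gives the second genotype as Ret Null and states neither the design of the allele nor whether embryos were pooled. The labels name no other treatment. RNA was taken from dissected gut, so each value is an average over all cells of the wall, and fewer cells of a type and less RNA per cell cannot be told apart. Ret, the receptor for GDNF family ligands on neural crest cells that colonise the gut, lay at 2.11 to 13.3 FPKM in the 18 wild-type libraries. It lay at 0.0111 to 0.0587 FPKM in 11 libraries labelled Ret null, called Ret-negative here. The other 7 held 4.74 to 6.49 FPKM and are called Ret-positive: all E10.5 females, E12.5 male 2, and E14.5 females 1 and 3 and male 1. Their labels therefore go against their RNA, and each comparison of genotypes is given with libraries as labelled and again without those 7.

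Other features of the libraries bear on what follows. In 4 libraries Xist or Ddx3y went against the labelled sex. E10.5 null-labelled female 3 held 0.911 FPKM of Xist and 13.5 FPKM of Ddx3y, and E10.5 null-labelled male 1 held 66.1 and 0 FPKM. E12.5 wild-type females 1 and 2 held both, with Xist at 49.1 and 52.2 FPKM and Ddx3y at 4.91 and 4.98 FPKM. In 4 groups a pair of libraries had a spread of at most 1.1 times the sampling noise and was counted as 1 sample, which left 32 samples. The fragments implied by the width of the authors' intervals ran from 4.88 M to 41.0 M per library, with 6.19 M to 8.09 M in null-labelled and 4.88 M to 6.79 M in wild-type libraries at E14.5. The E10.5 null-labelled female files differed in form from all others. In those files 0% of genes had an FPKM outside its own interval, against 2.73% to 13.6% in each of the other libraries. The implied depth and the sampling noise both come from these intervals and carry this limit. Summed marker genes of other tissues varied too. E14.5 wild-type male 2 had a summed level of 10 heart and striated muscle genes of 2936 FPKM, against 25.2 to 191 FPKM in the other E14.5 libraries. E12.5 wild-type male 2 had a summed level of 4.60 FPKM for 10 pancreas and endocrine genes, against 70.5 to 141 FPKM in the other E12.5 libraries. Barx1, a transcription factor of stomach mesenchyme chosen after its values were seen, ran from 0.0858 to 164 FPKM over the libraries.

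Ion channels set the membrane potential and the firing of excitable cells. In the gut wall they serve enteric neurons, smooth muscle and the interstitial cells that pace it, while epithelial potassium channels support ion and fluid transport. Voltage-gated potassium channels end the action potential, calcium channels admit the calcium that drives contraction and transmitter release, and sodium channels carry the fast upstroke in neurons. Auxiliary subunits do not form the pore but change where and how a channel opens. Inward rectifier and 2-pore potassium channels hold cells near their resting potential.

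Kcnj12 and Cacna1b lay low in Ret-negative gut at E14.5, and Kcnd3 and Kcnj8 lay high in null-labelled gut. Their promoter windows are printed for that reason, 250 bases before to 50 after a RefSeq start (GRCm38.p6), 5′ to 3′. Capitals mark each match to CANNTG, the E-box letters read by basic helix-loop-helix factors. The pattern reads the same on both strands, though a given match need not. The windows are Kcnj12 chr11:61065554-61065853 on the plus strand, Cacna1b chr2:24763103-24763402 on the minus strand, Kcnd3 chr3:105451640-105451939 on the plus strand and Kcnj8 chr6:142571565-142571864 on the minus strand.
Kcnj12: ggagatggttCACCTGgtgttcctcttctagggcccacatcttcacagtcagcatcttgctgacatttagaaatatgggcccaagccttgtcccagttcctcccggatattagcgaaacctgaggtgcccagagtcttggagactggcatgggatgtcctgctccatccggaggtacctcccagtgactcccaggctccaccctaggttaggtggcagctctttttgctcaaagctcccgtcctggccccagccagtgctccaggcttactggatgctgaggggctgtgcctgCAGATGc
Cacna1b: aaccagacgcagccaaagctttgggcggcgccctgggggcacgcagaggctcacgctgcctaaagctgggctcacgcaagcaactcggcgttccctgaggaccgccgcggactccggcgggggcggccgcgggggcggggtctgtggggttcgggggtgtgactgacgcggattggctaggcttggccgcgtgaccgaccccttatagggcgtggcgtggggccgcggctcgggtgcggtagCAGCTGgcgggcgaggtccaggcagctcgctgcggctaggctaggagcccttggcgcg
Kcnd3: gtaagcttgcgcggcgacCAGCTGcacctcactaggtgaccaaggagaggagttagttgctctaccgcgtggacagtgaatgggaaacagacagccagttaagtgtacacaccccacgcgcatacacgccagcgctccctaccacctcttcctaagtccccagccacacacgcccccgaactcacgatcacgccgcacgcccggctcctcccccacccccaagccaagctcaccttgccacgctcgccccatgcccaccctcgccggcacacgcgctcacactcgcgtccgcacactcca
Kcnj8: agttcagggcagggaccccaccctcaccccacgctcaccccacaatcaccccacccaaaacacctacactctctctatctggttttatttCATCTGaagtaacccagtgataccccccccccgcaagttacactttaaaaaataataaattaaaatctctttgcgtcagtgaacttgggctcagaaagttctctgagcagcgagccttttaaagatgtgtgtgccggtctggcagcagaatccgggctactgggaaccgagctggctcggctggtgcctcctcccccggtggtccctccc
Kcnj12 held 2 such matches and each of the others 1. Of all 32851 windows of this length 72.3% held at least 1, as did 71.0% of the 69 windows of the 46 described genes found in the table, so the letters do not set these genes apart. G and C made up 72.3% of the Cacna1b window, 64.0% of Kcnd3, 57.0% of Kcnj12 and 53.3% of Kcnj8, beside a median of 52.7% over all windows. The Kcnj12 window lies within the span that the files give for that gene (chr11:61022564-61073267), at an internal start. Windows for Scn3b, Cacna1g and Kcnk6 were not analysed here.

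**Figure D1:**
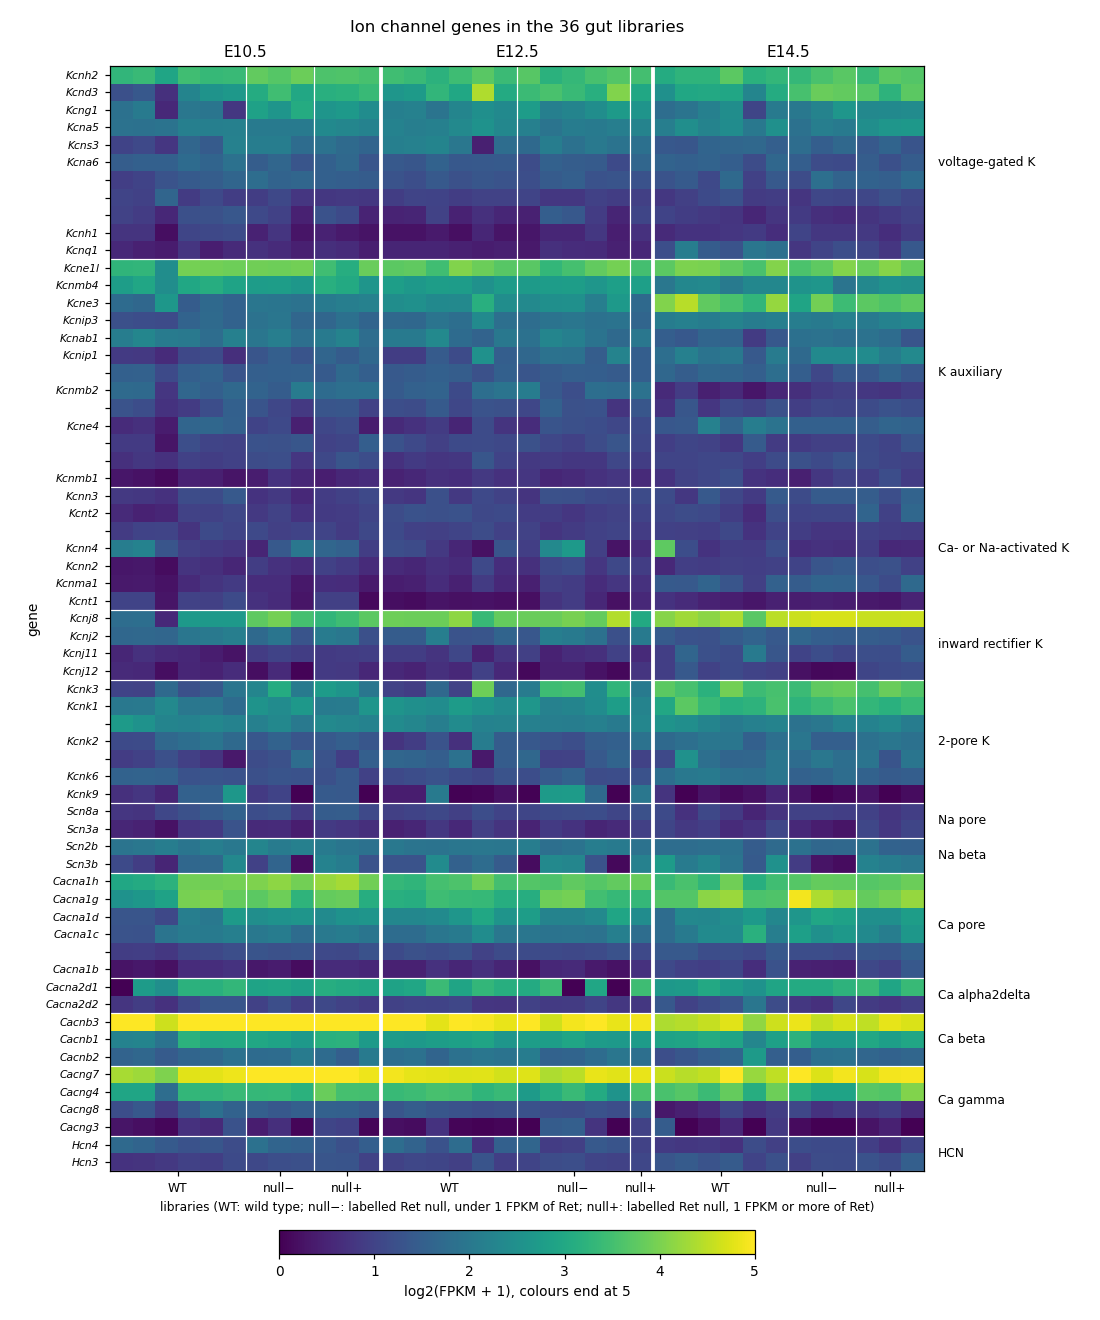
Level of most of the described ion channel genes (rows, by class, then by median level, with names for the genes discussed) in the 36 libraries (columns, by stage and then wild type, Ret-negative and Ret-positive null), as log2(FPKM + 1) in colour, with the scale ending at 5. Cacnb3 and Cacng7 are bright throughout, while Scn3b and Kcnj12 are dark in the Ret-negative columns at E14.5.

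The described genes fell into 12 classes by name. They comprised 15 of 40 voltage-gated potassium genes, 13 of 16 potassium auxiliary genes, 7 of 8 calcium- or sodium-activated potassium genes, 4 of 15 inward rectifiers and 7 of 14 2-pore genes. Of the sodium channel genes 2 of 9 pore genes and 3 of 4 beta subunits were described. Of the calcium channel genes there were 6 of 10 pore genes, 2 of 4 alpha2delta, 3 of 4 beta and 4 of 8 gamma genes, and 2 of 4 HCN genes completed the set. Only 6 genes had a median of 10 FPKM or more over the libraries, 14 had 5 or more and 46 had 1 or more. All 36 libraries held 21 of the genes at 1 FPKM or more. The threshold cut through a continuum: the third highest value was 1.01 FPKM for Kcnt1 and 1.06 FPKM for Kcnh1 just inside it, and 0.991, 0.965 and 0.956 FPKM for Kcnj15, Kcna1 and Kcnq3 just outside it.

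Genes named as calcium channel subunits gave the highest levels. Cacnb3, a cytoplasmic beta subunit, had a median of 29.1 FPKM (17.1 to 42.4 over the libraries), and Cacng7, a gamma-family protein, 26.5 FPKM (15.3 to 33.6). The T-type pore genes Cacna1h and Cacna1g, which open at low voltage, followed at 12.1 FPKM (6.86 to 19.1) and 11.7 FPKM (4.87 to 29.2). The L-type pore gene Cacna1d had a median of 4.54 FPKM and Cacna1c, the main L-type pore of muscle, 3.13 FPKM. Cacna1b, the N-type pore of nerve terminals, stood at 0.491 FPKM. Cacng4 had a median of 9.36 FPKM, Cacnb1 6.05 FPKM, and the alpha2delta genes Cacna2d1 and Cacna2d2 6.85 and 0.959 FPKM. Cacna2d1 was listed at 0 in E10.5 wild-type female 1, E12.5 null female 3 and E12.5 null male 3 with a status other than OK, which is a failed estimate rather than a level.

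Among potassium channels the highest medians belonged to Kcnj8, the pore of a vascular and muscle ATP-sensitive channel (13.5 FPKM, 0.489 to 25.0), and to Kcne1l, a small auxiliary subunit (12.8 FPKM, at most 16.1). Kcnh2, the ERG channel, had a median of 9.96 FPKM (6.70 to 13.6), and Kcnd3, an A-type channel, 7.41 FPKM (0.616 to 20.2). Kcnmb4, a beta subunit of the large-conductance calcium-activated channel, stood at 5.48 FPKM, far above the median of 0.662 FPKM for the pore gene of that channel, Kcnma1. The 2-pore genes Kcnk3 and Kcnk1 had medians of 5.36 and 5.01 FPKM, and the inward rectifier Kcnj2 1.91 FPKM. Of the small- and sodium-activated genes Kcnn3 had the highest median, 1.14 FPKM, followed by Kcnt2 at 0.993 FPKM.

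Sodium channel genes were low. Scn8a and Scn3a, both pores of neurons, had medians of 1.06 FPKM (0.422 to 1.96) and 0.665 FPKM (0.179 to 1.44). The beta subunits lay higher, at 2.80 FPKM for Scn2b (1.73 to 3.83) and 2.10 FPKM for Scn3b (0.0803 to 5.74). Scn2b varied little while Scn3b spanned the widest ratio of the sodium genes. Hcn4 and Hcn3, which carry the hyperpolarisation-activated current, had medians of 1.36 FPKM (0.608 to 2.65) and 1.16 FPKM (0.665 to 1.85).

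In Ret-negative gut at E14.5 Scn3b and Kcnj12 fell, and Kcnd3 and Cacna1g rose, against wild type. The E14.5 samples were 3 Ret-negative libraries (female 2, males 2 and 3) and 6 wild-type libraries, and 55 of the 68 genes passed the filter of 1 FPKM or more in 3 samples. By limma with Benjamini-Hochberg adjustment over all 13729 genes, 2 of these 55 were called higher (3.64%) and 2 lower (3.64%), where called means an adjusted p under 0.05. Over all genes 3.96% were called higher and 4.65% lower, so the shares among channel genes lay near the background. With the libraries rescaled to a common median ratio the calls over all genes were 223 higher and 939 lower in place of 543 and 639, and the calls of channel genes 1 higher and 2 lower.

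Scn3b (chr9:40269216-40291618, mm10), a sodium channel beta subunit of neurons, lay at 1.68 FPKM at the lowest, 3.52 at the median and 5.74 at the highest in the 6 wild-type libraries. It lay at 0.844, 0.197 and 0.121 FPKM in Ret-negative female 2, male 2 and male 3. All 3 were below every wild-type library, while the 3 Ret-positive libraries held 3.65, 3.26 and 2.97 FPKM, inside the wild-type range. On the scale of log2(FPKM + 1), used for every fold change here, Scn3b fell by 1.62 ± 0.26 (SE, adjusted p = 0.0172 by limma). Kcnj12, a strong inward rectifier, lay at 0.890 to 1.63 FPKM in wild type, with a mean of 1.11 ± 0.274 (SD, n = 6), and at 0.162, 0.0766 and 0.0940 FPKM in the Ret-negative libraries. Its change was -0.90 ± 0.15 (adjusted p = 0.0206 by limma), and the Ret-positive libraries held 1.05, 1.17 and 1.26 FPKM. Scn3b reached 1 FPKM in every wild-type library and Kcnj12 in only some of them, and neither did in a Ret-negative library. So they entered the test through the group where they are higher. Both calls were also made without the filter (adjusted p = 0.0372 and 0.0243 by limma), where Kcnd3 and Cacna1g were not called (0.0697 and 0.0705).

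Cacna1b (chr2:24606375-24763152) showed the same arrangement without passing the test, and was singled out after its values were seen. It lay at 0.577 to 1.39 FPKM in wild type (median 1.01), at 0.393, 0.348 and 0.337 FPKM in the Ret-negative libraries and at 1.13, 0.954 and 1.59 FPKM in the Ret-positive ones. The Ret-negative libraries were below all others, with a log2 difference of -0.54 ± 0.17 (adjusted p = 0.0766 by limma). Cacng4 gave -0.52 ± 0.18 (adjusted p = 0.0975), with values of 8.33, 6.45 and 6.45 FPKM against 7.63 to 13.9 FPKM in wild type. The summed level of 15 enteric neuron genes, which holds no channel gene, moved with these genes: 34.9 to 68.5 FPKM in the Ret-negative, 304 to 348 in the Ret-positive and 149 to 364 in the wild-type libraries. Tubb3, a neuronal tubulin in that list, stood at 4.54, 1.23 and 0.786 FPKM in the Ret-negative and at 20.1 to 59.1 FPKM in the wild-type libraries. Its part in these differences was not tested.

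Kcnd3 and Cacna1g moved the other way. Kcnd3 (chr3:105452330-105674002) lay at 3.83 to 7.44 FPKM in wild type with a median of 6.80, and at 10.6, 13.5 and 13.0 FPKM in the Ret-negative libraries, with no overlap. It rose by 0.88 ± 0.20 (adjusted p = 0.0405 by limma). The Ret-positive libraries, at 11.8, 8.42 and 12.3 FPKM, also lay above every wild-type library. Cacna1g (chr11:94408391-94474198) lay at 11.0 to 18.0 FPKM in wild type (median 11.7) and at 29.2, 19.9 and 17.5 FPKM in the Ret-negative libraries, where male 3 fell within the wild-type range. It rose by 0.78 ± 0.18 (adjusted p = 0.0410), and rescaled libraries ended that call (adjusted p = 0.0559 by limma). Every call rested on each of the 3 Ret-negative libraries: without null female 2, male 2 or male 3 no channel gene was called, nor with males 2 and 3 counted as 1 sample, an alternative chosen after seeing the data. The calls of Kcnd3 and Cacna1g were also lost without wild-type female 1, female 2 or male 3, and Cacna1g without wild-type male 2. Over the samples left out, adjusted p reached 0.136 for Kcnd3 and 0.276 for Cacna1g by limma. Kcnj12 passed the filter in only 6 of 9 such fits, so its call was not checked without certain wild-type libraries.

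**Figure D2:**
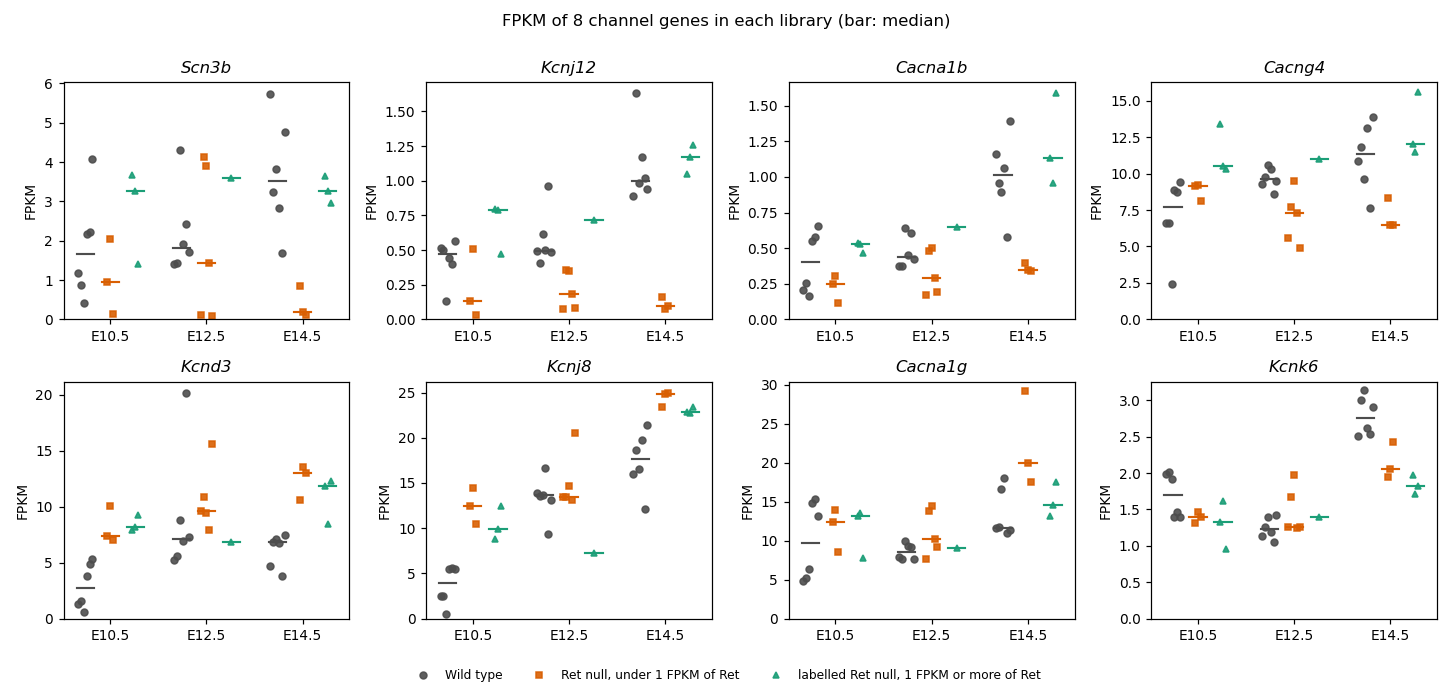
FPKM of 8 ion channel genes by stage, 1 point per library, with wild type in grey circles, Ret-negative null in orange squares, Ret-positive null-labelled libraries in green triangles and a bar at each median. At E14.5 the Ret-negative libraries hold 0.121 to 0.844 FPKM of Scn3b against 1.68 to 5.74 in wild type, while Kcnd3 and Kcnj8 are higher in both kinds of null-labelled library than in wild type.

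Across the 55 genes, the 3 Ret-negative and 6 wild-type libraries did not overlap for 13. They were lower for 7 (12.7%, beside 9.51% of all genes), among them Scn3b, Kcnj12, Cacna1b, Kcnk6 and Kcnn4. They were higher for 6 (10.9%, beside 16.3% of all genes), among them Kcnd3, Kcnj8, Kcnab1, Kcnn2 and Cacna2d1. No test of either share was made. The Ret-positive libraries separate these genes further. All 3 lay inside the wild-type range for Scn3b and Kcnj12, and none did for Kcnd3, Kcnj8 and Kcnk6.

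With libraries as labelled at E14.5, 6 null-labelled and 6 wild-type samples were compared. Of 59 channel genes tested, 4 were called higher (6.78%) and 2 lower (3.39%), beside 10.9% and 4.84% of all 13861 genes by limma. Rescaled libraries turned the split to 1 higher and 4 lower, and over all genes from 1504 higher and 671 lower to 537 and 1088. The rises were Kcnd3 (0.84 ± 0.15, adjusted p = 0.0108), Kcnj8 (0.44 ± 0.11, 0.0276), the calcium channel subunit Cacna2d1 (0.40 ± 0.10, 0.0299) and Cacna1d (0.39 ± 0.11, 0.0379). The falls were Kcnq1, an epithelial and cardiac potassium channel (-0.60 ± 0.17, 0.0395), and the 2-pore gene Kcnk6 (-0.34 ± 0.08, 0.0221). Every one of these p-values is adjusted over all genes by limma.

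Kcnj8 (chr6:142564939-142571356) lay at 22.9, 23.4 and 22.8 FPKM in null-labelled females and 23.4, 24.8 and 25.0 in males, and at 12.1 to 21.4 FPKM in wild type with a median of 17.6. Kcnk6 (chr7:29221928-29232522) lay at 1.97, 1.94, 1.71, 1.82, 2.06 and 2.43 FPKM in the null-labelled libraries and at 2.51 to 3.15 FPKM in wild type. All 6 null-labelled libraries were above all 6 wild-type libraries for Kcnd3 and Kcnj8 (2 of 59 channel genes, beside 4.80% of all genes) and below them for Kcnk6 (1 of 59, beside 1.53%). Barx1 was arranged in the same way, at 36.3 to 51.0 FPKM in null-labelled and 0.0858 to 27.5 FPKM in wild-type libraries at E14.5, and its part in these differences was not tested. The Kcnd3 call held without any single sample. The other calls did not: Kcnj8, Cacna1d and Kcnq1 lost theirs without any of null females 1 and 2 and males 1, 2 and 3, Cacna2d1 without the same libraries except male 2, and Kcnk6 without null male 1 or 2 or wild-type male 3. Among wild-type libraries, female 1 decided Kcnj8, Cacna2d1 and Cacna1d, female 2 Cacna2d1 and Kcnq1, male 1 Cacna1d, male 2 Cacna2d1 and Kcnq1, and male 3 Cacna1d and Kcnq1. Adjusted p then lay between 0.0510 and 0.0908.

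**Figure D3:**
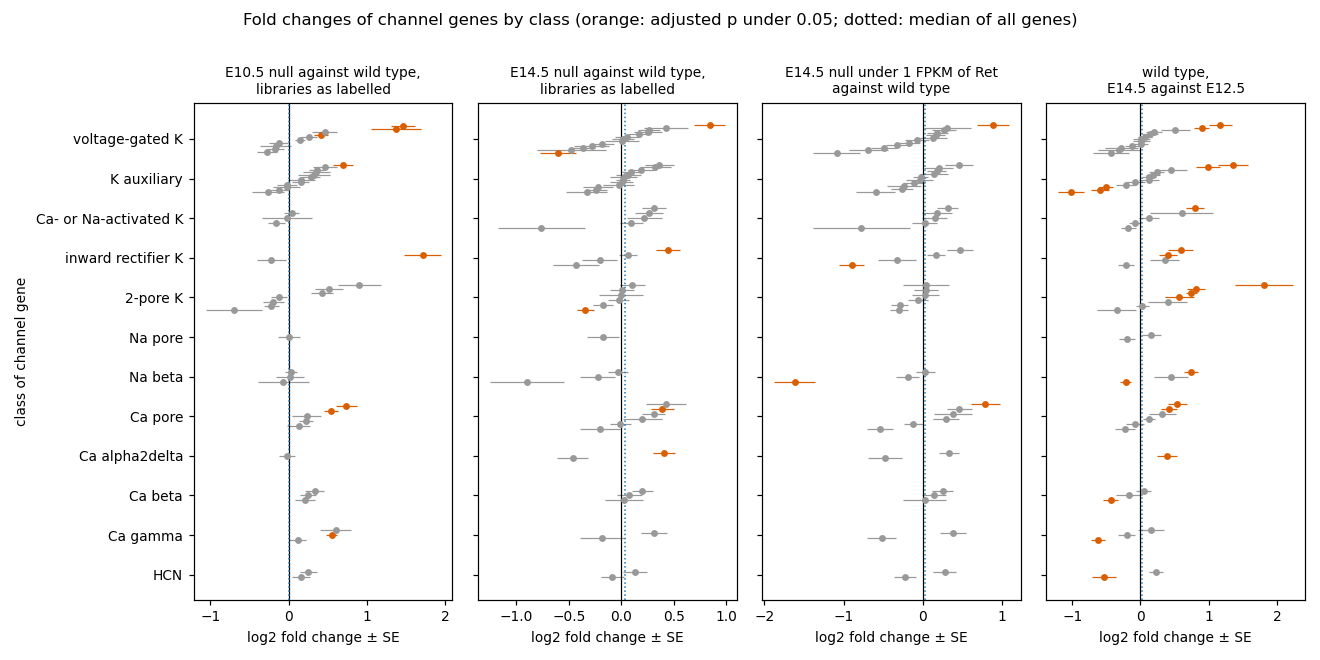
Log2 fold change (points) with its standard error (lines) for each tested ion channel gene, by class, in 4 comparisons, on the log2(FPKM + 1) scale. Orange points have an adjusted p under 0.05 by limma, 8 in the first panel, 6 in the second, 4 in the third and 22 in the last, and the dotted line is the median of all genes.

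At E12.5 no channel gene was called. As labelled, 0 of 51 passed by limma, beside 0.00759% of all genes (1 of 13182). At an unadjusted p under 0.05 by limma there were 4 of the 51, beside 1115 of the 13182. Without Ret-positive male 2, 0 of 50 passed, beside 0.259% of all genes. Here 3 of the 50 had an unadjusted p under 0.05 by limma, beside 1033 of all 13121 genes. The spread within the Ret-negative group was wide. Scn3b lay at 0.120, 4.14 and 3.89 FPKM in females 1, 2 and 3 and at 1.43 and 0.0803 FPKM in males 1 and 3, against 1.42 to 4.31 FPKM in wild type. Females 2 and 3 lay near the highest wild-type library, and female 1 and male 3 lay below the lowest.

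Genes of catecholamine-making cells were also highest in females 2 and 3 and lowest in female 1 and male 3. Th, the first enzyme of catecholamine synthesis, lay at 0.381, 18.1, 19.7, 8.48 and 0.268 FPKM in females 1, 2 and 3 and males 1 and 3. A list of 7 sympathetic and chromaffin genes, added after these values were seen, summed to 12.6, 124, 138, 54.1 and 12.8 FPKM. Kcnk9, a 2-pore acid-sensitive channel, followed at 0.0138, 5.61, 5.71, 2.26 and 0 FPKM. Cacng3, a gamma-family gene, followed at 0, 1.74, 1.86, 0.686 and 0 FPKM. The highest Kcnk9 in wild-type gut, 5.22 FPKM in E10.5 male 5, went with the highest Th of the series, 23.1 FPKM. At E14.5 Kcnk9 was at most 0.688 FPKM, in wild-type female 1 with Th at 14.9 FPKM and Cacng3 at 1.73 FPKM. The share of such tissue in the differences between libraries was not tested.

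**Figure D4:**
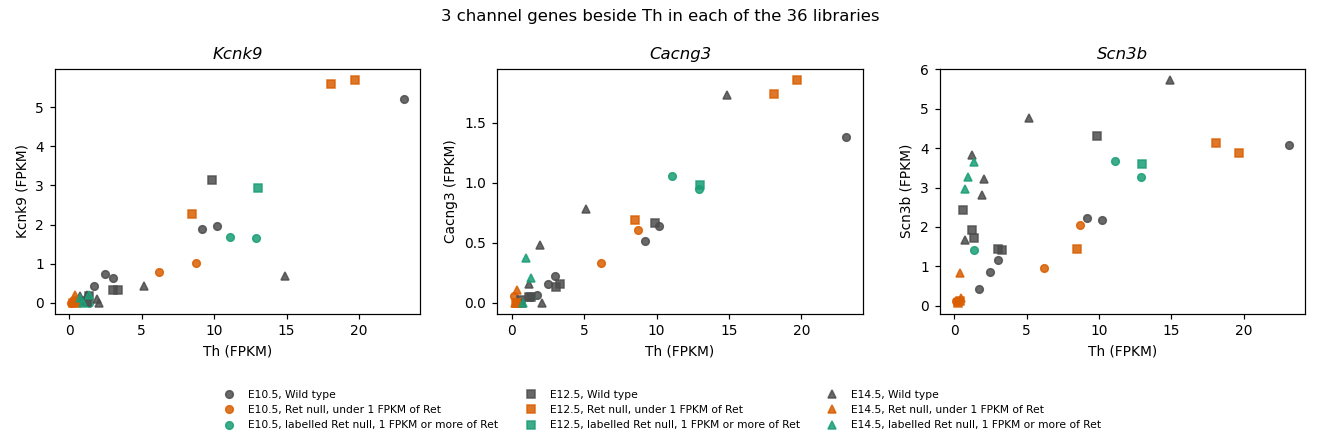
FPKM of Kcnk9, Cacng3 and Scn3b (vertical axes) against FPKM of Th (horizontal axes), 1 point per library, with shapes for stage and colours for genotype and Ret level. The 3 libraries with Kcnk9 at 5.22 to 5.71 FPKM hold 18.1 to 23.1 FPKM of Th, while Scn3b is also at 1.68 to 4.76 FPKM in E14.5 wild-type libraries with Th of 0.738 to 5.14 FPKM.

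At E10.5 with libraries as labelled, 8 of 52 channel genes were called higher in null-labelled gut (15.4%) and 0 lower, beside 5.61% and 2.67% of all 13165 genes by limma. The median log2 difference was 0.16 over these genes and 0.01 over all genes. By name they were potassium channel and calcium channel genes. Kcnd3 rose by 1.46 ± 0.15 (adjusted p = 0.00337), Kcnj8 by 1.71 ± 0.23 (0.00864), Cacng7 by 0.55 ± 0.07 (0.00850) and Kcng1, a modifier subunit, by 1.37 ± 0.32 (0.0410). Cacna1d rose by 0.74 ± 0.13 (0.0211), Kcnip1, a calcium-binding partner of A-type channels, by 0.69 ± 0.13 (0.0211), Cacna1h by 0.54 ± 0.09 (0.0168) and Kcnh2 by 0.41 ± 0.09 (0.0320). All p-values here are adjusted over all genes by limma.

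Kcnd3 lay at 7.92, 8.19 and 9.29 FPKM in null-labelled females and 7.39, 10.1 and 6.99 FPKM in males. It lay at 1.32, 1.60 and 0.616 FPKM in wild-type females and 3.80, 4.91 and 5.35 FPKM in wild-type males. The groups did not overlap, and wild-type females were lower than wild-type males. Kcnj8 had a median of 11.4 FPKM over the null-labelled libraries, with 8.81 FPKM in the lowest, and lay at 0.489 to 5.56 FPKM in wild type. Cacng7 lay at 33.0, 33.3, 28.2, 33.5, 33.6 and 33.2 FPKM in the null-labelled and at 15.3 to 28.2 FPKM in the wild-type libraries, so the groups met at 28.2 FPKM. Summed smooth muscle genes differed in the same way, at 385 to 533 FPKM in null-labelled libraries and 122 to 131 FPKM in wild-type females and 231 to 258 FPKM in wild-type males. Barx1 lay at 68.7 to 110 FPKM in the males and in female 3 of the null-labelled group, at 5.70 and 6.35 FPKM in females 1 and 2, and at 0.651 to 38.3 FPKM in wild type. The part of these tissues in the differences was not tested.

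The E10.5 null-labelled females, whose files differed in form from all others, were all Ret-positive. The comparison without them therefore set 3 Ret-negative males against 2 wild-type male samples, with the wild-type females used for the spread. These are males by label only, since the sex genes of Ret-negative male 1 go against its label. No channel gene of 50 was called by limma, beside 0.522% of all genes (68 of 13037). At an unadjusted p under 0.05 by limma there were 14 of the 50, beside 2634 of the 13037. Kcnd3 then differed by 0.63 ± 0.22 (adjusted p = 0.186) and Kcnj8 by 1.04 ± 0.32 (adjusted p = 0.162). Scn3b differed by -1.10 ± 0.42 (adjusted p = 0.212), with 0.949, 2.04 and 0.128 FPKM in Ret-negative males 1, 2 and 3 against 2.17, 2.23 and 4.07 FPKM in wild-type males. Without wild-type females 1 and 2, or without female 3, 2 and 1 channel genes were called. As labelled, the calls of Kcnd3, Kcnj8 and Cacng7 held without any single sample. With the sex-mismatched libraries left out the count fell to 3, and Kcnj8 had an adjusted p of 0.0644. Kcng1 lost its call without any sample other than wild-type females 1 and 2 or wild-type males 3 and 4, and Kcnh2 without null females 1 and 2, any null male or either wild-type male sample. Cacna1d lost it without any null male, Kcnip1 without null male 1 or 2 or wild-type male 5, and Cacna1h without either wild-type male sample, with adjusted p from 0.0507 to 0.131 over these genes. Without the filter Kcng1 and Kcnh2 were not called (0.0800 and 0.0570).

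The difference between the E14.5 and E12.5 effects of genotype was tested in 1 fit without the Ret-positive libraries. None of 62 channel genes was called by limma, beside 13.1% of all genes. At an unadjusted p under 0.05 by limma there were 8 of the 62, beside 4489 of all 14088 genes. The interaction was -1.05 ± 0.62 for Scn3b (adjusted p = 0.252), -0.49 ± 0.19 for Kcnj12 (0.101) and 0.53 ± 0.26 for Cacna1g (0.183), all adjusted by limma. So the effects at E14.5 were not shown to differ from those at E12.5. Some estimates had opposite signs at stages that share no sample, though 1 of each pair was not called. Cacna1g differed by -0.28 at E10.5 and 0.78 at E14.5 without Ret-positive libraries. Kcnk6 differed by 0.12 at E12.5 and -0.34 at E14.5, and Cacng7 by 0.55 at E10.5 and -0.10 at E12.5, as labelled.

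Stage comparisons used wild-type samples only. The fragments implied per library ran from 6.88 M to 17.8 M at E10.5, 22.9 M to 30.9 M at E12.5 and 4.88 M to 6.79 M at E14.5. Depth and stage therefore cannot be told apart in these comparisons. Between E10.5 and E12.5, 4 samples and 5 samples, Kcnj8 rose by 1.89 ± 0.24 (adjusted p = 0.00249), Kcnd3 by 1.46 ± 0.30 (0.0232), Cacna1d by 0.74 ± 0.16 (0.0371) and Kcnip3, a calcium sensor that binds A-type channels, by 0.50 ± 0.12 (0.0426), all adjusted by limma. In all, 4 of 61 channel genes were called higher (6.56%) and 1 lower (1.64%), beside 1.50% and 1.25% of all 14041 genes. Kcnj8 went from 3.49 ± 2.45 FPKM (SD, n = 4) to 13.3 ± 2.61 FPKM (SD, n = 5) without overlap. Kcnj8, Kcnd3 and Cacna1d were also among the rises in E10.5 null-labelled gut. Both comparisons use the same E10.5 wild-type samples, whose low values enter both. The Kcnj8 call held without any single sample. Kcnip3 lost it without any sample other than the E12.5 males, and Kcnd3 without any sample other than E10.5 females 1 and 2 or the E12.5 males. Cacna1d lost it without any sample other than E10.5 females 1 and 2 and E10.5 male 5. Adjusted p then lay between 0.0504 and 0.164.

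Between E12.5 and E14.5 the set changed broadly, as did the whole transcriptome and the implied depth. Of 61 channel genes 15 were called higher (24.6%) and 7 lower (11.5%), beside 29.5% and 26.2% of all 14041 genes, so the share called lower was smaller than the background and no test of that difference was made. By class, the rises were 4 of 7 2-pore genes, 2 of 4 inward rectifiers, 2 of 13 voltage-gated potassium genes, 2 of 6 calcium pore genes, 2 of 12 potassium auxiliary genes and 1 each of the calcium-activated, sodium beta and alpha2delta genes. The falls were 3 of the 12 potassium auxiliary genes and 1 each of the calcium beta, calcium gamma, sodium beta and HCN genes. Of the genes called, 7 reached 1 FPKM at 1 of the stages only, among them Kcnq1, Kcnma1, Kcnmb2, Cacna1b and Kcnj12, and so entered the test through the stage where they are higher. Kcnq1, Kcnma1 and Kcnmb2 were also called without the filter (adjusted p = 0.000294, 0.000336 and 0.00156 by limma).

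The 3 largest rises were in Kcnk3, Kcne3 and Kcnq1. Kcnk3, an acid-sensitive 2-pore channel, went from 0.868, 0.970, 0.989, 2.20, 2.23 and 13.9 FPKM in the E12.5 libraries to 8.19 to 14.2 FPKM at E14.5, and rose by 1.81 ± 0.43 (adjusted p = 0.00339). E12.5 male 2 alone held 13.9 FPKM, inside the E14.5 range. The call held without it. Kcne3, a partner of Kcnq1 in epithelium, rose by 1.35 ± 0.22 (0.000321) from 5.05 ± 1.58 FPKM (SD, n = 5) to 14.4 ± 4.53 FPKM (SD, n = 6). Kcnq1 itself rose by 1.17 ± 0.17 (0.000135), from 0.319 to 0.429 FPKM at E12.5 to 1.29 to 3.36 FPKM at E14.5. Neither of these 2 genes overlapped between the stages. The summed level of 7 epithelial genes was 155 to 231 FPKM at E12.5 and 409 to 797 FPKM at E14.5, and that of 10 smooth muscle genes 249 to 1021 and 850 to 1627 FPKM. Their part was not tested. All p-values here and in the next 2 paragraphs are adjusted over all genes by limma.

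Kcne4, an auxiliary subunit, rose by 0.98 ± 0.17 (adjusted p = 0.000524 by limma), and Kcnma1, the large-conductance calcium-activated pore of smooth muscle, by 0.80 ± 0.13 (0.000272), from 0.517 ± 0.197 (SD, n = 5) to 1.63 ± 0.397 FPKM (SD, n = 6). Of its beta subunit genes Kcnmb2 and Kcnmb4 went the other way, while Kcnmb1, which did not enter this test, lay at 0.402 to 0.780 FPKM at E12.5 and 0.583 to 1.29 FPKM at E14.5. Kcnmb2 fell by 1.02 ± 0.19 (0.000723) from 1.17 to 2.77 FPKM to 0.230 to 0.854 FPKM, and Kcnmb4 fell by 0.50 ± 0.10 (0.00147) from 5.57 ± 0.436 (SD, n = 5) to 3.68 ± 0.515 FPKM (SD, n = 6). Kcnk1 rose by 0.81 ± 0.14 (0.000364), Kcnk6 by 0.74 ± 0.08 (1.7e-05) and Kcnj11, a pore of ATP-sensitive channels, by 0.59 ± 0.18 (0.0157). Rises outside the 10 largest were Kcnk2, Cacna1g, Cacna1b, Kcnj12 and Cacna2d2, at 0.57, 0.54, 0.41, 0.40 and 0.38.

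Cacng8 fell by 0.62 ± 0.10 (adjusted p = 0.000331 by limma), from 1.45 ± 0.133 (SD, n = 5) to 0.626 ± 0.311 FPKM (SD, n = 6), and Kcnab1, a cytoplasmic beta subunit, by 0.59 ± 0.14 (0.00290). Hcn4 fell by 0.53 ± 0.17 (0.0219), Cacnb3 by 0.44 ± 0.11 (0.00502) and Scn2b by 0.21 ± 0.08 (0.0383). Kcnj11 lost its call without E12.5 female 3 (adjusted p = 0.0591), Hcn4 without E12.5 females 1 and 2, male 1 or male 3 (up to 0.110), and Scn2b without any sample except E14.5 female 3, male 1 and male 3 (up to 0.118). The other changes given here with a standard error held without any single sample.

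**Figure D5:**
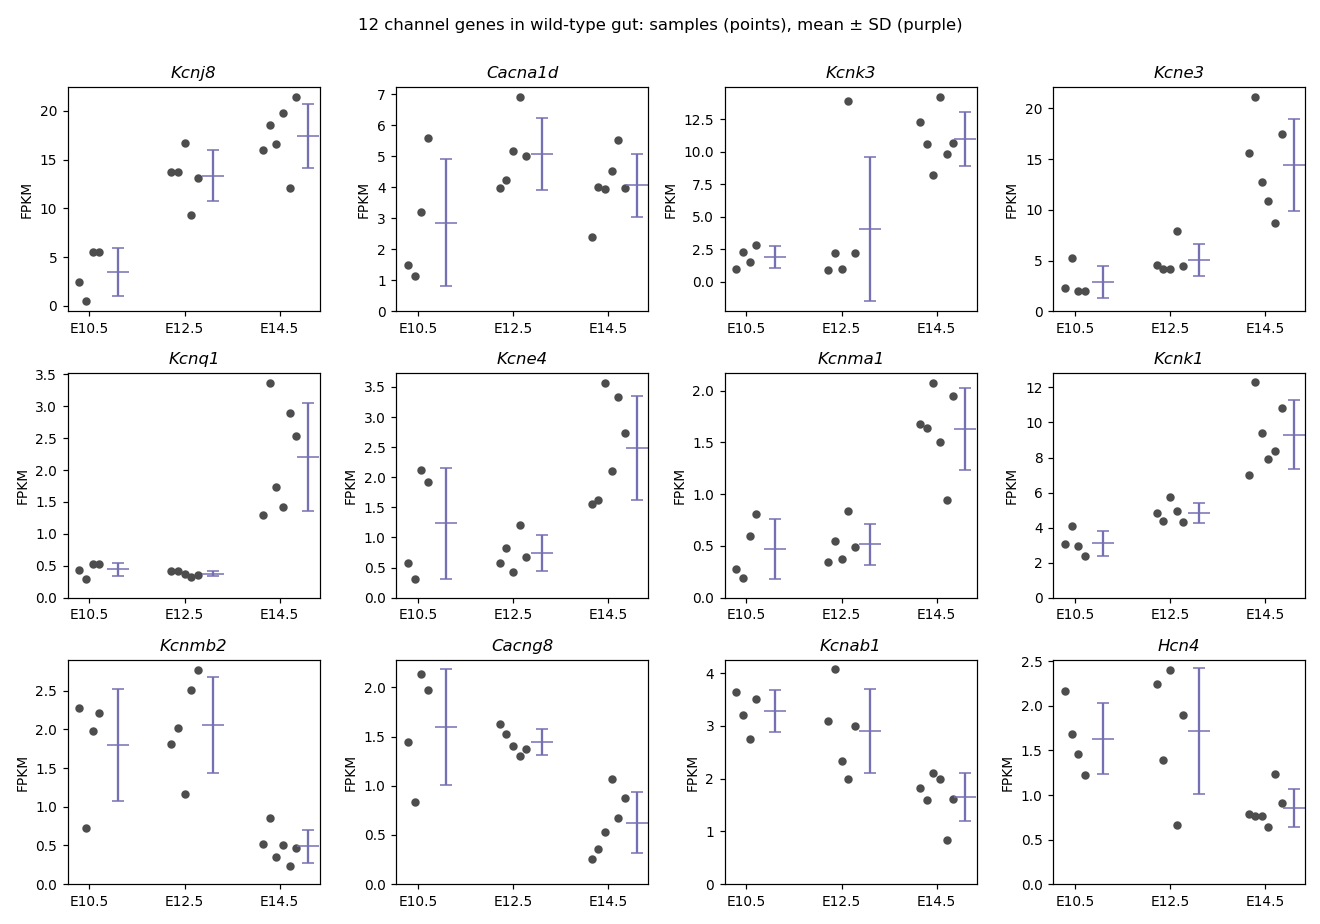
FPKM of 12 ion channel genes in wild-type gut by stage, 1 point per sample (4, 5 and 6 samples, close pairs averaged), with the mean and SD in purple. Kcnj8 lies at 9.37 to 16.7 FPKM at E12.5 against 5.56 or less at E10.5, Kcnq1 and Kcne3 are higher and Kcnmb2 is lower in every E14.5 sample than at E12.5.

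Known partners of these channels were taken from a list of 50 genes. Their calls come from the main fits only and were not tried under the alternatives or with samples left out. Abcc9, the sulphonylurea receptor that assembles with Kcnj8, was called in the same comparisons as Kcnj8 and in 2 more. It rose by 0.76 ± 0.13 in E10.5 null-labelled gut (adjusted p = 0.0174), 0.95 ± 0.13 from E10.5 to E12.5 (0.00342) and 0.41 ± 0.11 in E14.5 null-labelled gut (0.0310). It also rose by 0.46 ± 0.11 in E14.5 Ret-negative gut (0.0434) and 0.73 ± 0.11 from E12.5 to E14.5 (0.000249, all by limma), where Kcnj8 gave 0.47 ± 0.17 (0.106) and 0.35 ± 0.22 (0.180). At E14.5 the median of Abcc9 was 18.3 FPKM in Ret-negative, 17.3 FPKM in Ret-positive and 12.1 FPKM in wild-type libraries. A list of 5 pericyte genes, 2 of which are Kcnj8 and Abcc9 themselves, summed to 91.3 to 98.5, 74.2 to 86.6 and 64.1 to 83.1 FPKM.

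In Ret-negative gut at E14.5, 2 of 33 partner genes tested were higher and 3 lower, beside 3.96% and 4.65% of all genes. The higher ones were Abcc9 and Ank3, and the lower ones were Fgf13, a cytoplasmic regulator of sodium channels (-0.79 ± 0.11, adjusted p = 0.0122 by limma), Nfasc, an adhesion protein of the axon initial segment (-0.99 ± 0.23, 0.0406), and Ank2, an ankyrin (-0.54 ± 0.13, 0.0441). At E12.5, where no channel gene was called, 3 of 28 partners were lower in Ret-negative gut and 0 higher, beside 0.259% of all genes called in either direction. Fgf13 differed by -0.59 ± 0.07 (adjusted p = 0.0147), Lgi4, a ligand made by glia, by -0.83 ± 0.10 (0.0130) and Nrcam, an axonal adhesion protein, by -0.55 ± 0.08 (0.0466, all by limma). Fgf13 lay at 3.48, 3.59, 3.65, 4.03 and 4.58 FPKM in the 5 Ret-negative libraries and at 5.27 to 6.90 FPKM in wild type, without overlap. Summed enteric neuron genes at this stage lay at 35.1 to 152 FPKM in Ret-negative and 172 to 239 FPKM in wild-type libraries. The sum of 7 crest progenitor and glia genes lay at 29.3 to 47.1 and 50.1 to 85.6 FPKM. Neither sum overlapped between the groups, and their part in these differences was not tested. Lgi4 and Nrcam at E12.5 and Nfasc at E14.5 stayed under 1 FPKM in every Ret-negative library. These genes therefore entered the tests through wild type, where they are higher, and their calls were not tried without the filter. From E12.5 to E14.5 in wild type 12 of 34 partners rose and 1 fell, beside 29.5% and 26.2% of all genes. Rrad and Stac, among the rises, stayed under 1 FPKM in every E12.5 wild-type library, and so entered this test through E14.5. The largest rise was Rrad, a small GTPase that binds calcium channels (1.36 ± 0.34, 0.00520), with Stac (0.76 ± 0.20), Rem1 (0.72 ± 0.12) and Abcc9 next, and the fall was the proton channel Hvcn1 (-0.44 ± 0.09, 0.00190). Rrad stood at 14.8 FPKM in E14.5 wild-type male 2, the library with heart genes, and at 2.20 to 3.49 FPKM in the other wild-type libraries of that stage.

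A few channel genes were high in single libraries together with genes of other tissues. In E14.5 wild-type male 2, the library with heart genes, Cacna1c stood at 8.01 FPKM against 2.40 to 4.33 in the other wild-type libraries, and Cacnb2 at 5.62 FPKM against 1.30 to 2.10. In E12.5 wild-type male 2 Kcnd3 stood at 20.2 FPKM against 5.19 to 8.77 in the other wild-type libraries and Kcns3, a silent modifier subunit, at 0.351 FPKM against 2.45 to 3.76. That library had the highest summed smooth muscle level of its stage, 1021 FPKM. Kcnn4, the calcium-activated channel of red cells and epithelium, stood at 12.6 FPKM in E14.5 wild-type female 1 against 0.662 to 1.27 FPKM in the other wild-type libraries, with a summed level of 4 liver genes of 2459 against 48.8 to 219 FPKM. At E12.5 it was highest in Ret-negative females 2 and 3 (4.10 and 5.40 FPKM), whose liver genes summed to 864 and 805 FPKM against 21.2 to 290 FPKM in the other libraries.

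Position and annotation limit some of these values. Cacna1c lies 0.390 Mb from Ret (chr6:118151745-118197718 in GENCODE M21), and Kcna5 and Kcna6 lie 8.33 and 8.51 Mb away. Cacna1c was called in none of the genotype comparisons (log2 differences of -0.15 to 0.38), nor were Kcna5 (-0.32 to 0.15) and Kcna6 (-0.29 to -0.04). Kcna5 was lower in all 5 Ret-negative than in all 5 wild-type samples at E12.5, as were 1.38% of all genes. At E10.5 Kcna5 and Kcna6 were lower in all 3 Ret-negative than in both wild-type male samples, as were 18.0% of all genes. Cacna1c overlapped at each stage, and Kcna5 and Kcna6 did at E14.5. No source used here says whether counting used strand. By the GENCODE M21 exons 25 of the 68 genes share bases with a gene on the other strand. Among them, Kcna6 shared 2355 bases with Gm26673 (39.6% of its exon bases) and Hcn3 711 bases with the protein-coding gene Pklr (17.1%). Kcnmb4 shared 693 bases with Kcnmb4os2 (20.8%) and 355 bases with Kcnmb4os1 (10.7%). Kcnma1 shared 1016 bases with a long noncoding RNA (5.98%). Kcnq1 shared 121 bases with Kcnq1ot1 (2.96%) and Kcnd3 165 bases with Kcnd3os (1.72%). Reads from such partners cannot be told apart there. Nothing in the labels ties each library to its own embryo. The p-values therefore reflect variation among these samples only, and that variation may be technical.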

How the data were processed

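Whole-gut RNA from 36 libraries in 12 groups of 3 was read as 1 FPKM value per gene and library, made by the authors and deposited with an interval and a status, per the file headers. Picard, TopHat2, Cufflinks, Cuffdiff and mm10 are named in the submitters' processing notes, and no source used here gives their versions or settings. Starts were read as counted from 0 and are printed counted from 1.

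The values were moved to log2(FPKM + 1) and fitted with limma (version 3.58.1, under R version 4.3.3), after a check on simulated data, with a mean-variance trend, empirical Bayes moderation and two-sided tests. A gene entered a fit if 3 of its samples reached 1 FPKM and its status was OK in each library there, and called at a Benjamini-Hochberg adjusted p under 0.05 over all genes tested. Each stage was fitted with its group means (genotype by sex) and the genotype contrast averaged over the sexes; wild-type stages and the interaction had fits of their own. Library pairs whose spread was at most 1.1 times the sampling noise, with at most 1% of genes beyond 3 SD, were averaged, which left 32 samples. A null-labelled library counted as Ret-positive at 1 FPKM or more of Ret. No read counts or count tests were used, and the depth is that implied by the intervals.

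The members, gene lists and rules were chosen with earlier results of these data known. Named members were up to 10 called in each direction by fold change, the top 2 of each class by median, 3 either side of the threshold, members with opposite signs between comparisons, and up to 4 called partners per direction; other names were chosen after their values were seen. A few members that the rule names are counted but not reported here. Alternatives were another pseudocount (0.1), no filter, rescaled libraries, every library as a sample, the replicate block, any status, the sex-mismatched libraries left out, each sample left out in turn, a fit of all libraries, and E14.5 null males 2 and 3 counted as 1 sample, the last chosen after seeing the data. Python (3.11.15) with pandas (2.3.3), numpy (2.4.6) and matplotlib (3.10.9) made the summaries and figures.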

Additional observations from a re-analysis of the deposited data

Results flagged for a closer look

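Of 69 combinations of a named gene and a group of samples, 7 had a sample set apart by more than the gap Dixon's criterion allows. Chance flags about 1 in 20, but the combinations reuse the same samples over many genes and are not independent. In E12.5 wild type (n = 5) all of the samples set apart were male 2. That library held 20.2 FPKM of Kcnd3 against 5.41 to 8.77 FPKM in the others, 13.9 FPKM of Kcnk3 against 0.928 to 2.23 FPKM, 7.86 FPKM of Kcne3 against 4.13 to 4.58 FPKM and 4.23 FPKM of Kcnip3 against 2.21 to 2.78 FPKM. Kcnmb4 was low there, at 4.80 FPKM against 5.67 to 5.88 FPKM. The same library had 4.60 FPKM of summed pancreas and endocrine genes and 0.229 FPKM of Barx1, and their part was not tested.

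In E14.5 wild type (n = 6) male 2 was set apart, with 1.73 FPKM of Scn2b against 2.30 to 2.65 FPKM. This is the library with 2936 FPKM of summed heart and striated muscle genes, whose part was not tested. In E10.5 null-labelled gut (n = 5) Cacng7 stood at 28.2 FPKM in female 3 against 33.2 to 33.6 FPKM in the others, and the sex genes of that library go against its label.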

How the results depend on the processing

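For 29 named genes, 669 values under alternatives were computed: 515 stayed on the same side of the threshold, 153 lost the call, 1 gained one and 0 changed sign. With every library counted as a sample, E10.5 calls as labelled went from 8 to 23 channel genes, E10.5 calls without Ret-positive libraries from 0 to 5, wild-type calls from E10.5 to E12.5 from 5 to 13 and interaction calls from 0 to 2. Leaving out the sex-mismatched libraries gave 3 calls at E10.5 as labelled and 1 in wild type from E10.5 to E12.5. At E14.5 without Ret-positive libraries the absence of a filter gave 2 calls in place of 4, and rescaling gave 1 interaction call in place of 0. Counting E14.5 null males 2 and 3 as 1 sample, chosen after seeing the data, gave 2 calls as labelled in place of 6 and 0 without Ret-positive libraries in place of 4. Beyond fewer or more samples in a fit, the cause was not tested.

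With 1 sample left out in turn, calls ran from 4 to 12 at E10.5 as labelled, 2 to 8 at E14.5 as labelled, 0 to 2 at E10.5 and 0 to 5 at E14.5 without Ret-positive libraries, and 0 to 0 at E12.5 either way. They ran from 1 to 5 in wild type from E10.5 to E12.5, 18 to 24 from E12.5 to E14.5 and 0 to 4 for the interaction. A lone sample left in a group was assumed to vary like the other groups.

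The replicate number as a block, with every library counted, gave 1 call at E10.5 and 0 at E14.5 as labelled, 1 at E12.5 and 0 at E14.5 without Ret-positive libraries, 2 in wild type from E10.5 to E12.5 and 5 for the interaction. Deviations of same-numbered libraries correlated between -0.351 and 0.386. The labels give such libraries only the number in common, and whether they share more was not tested. The block was not run for E10.5 without Ret-positive libraries, where fewer than 2 numbers are shared, and no library was sex-mismatched at E14.5. The small E14.5 Ret-negative group (3 libraries) and the FPKM unit, which keeps no counts, limit what could be detected.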
